A study of Mus musculus with 103 samples.

Results

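The nuclear tRNAs that carry the basic amino acids arginine and lysine were followed in mouse cortex with and without neuronal Nsun2. The members were every isodecoder whose name marks it as tRNA-Arg or tRNA-Lys, and mitochondrial tRNAs were left out. An isodecoder is a tRNA with its own sequence, and isodecoders that share an anticodon form an isoacceptor. In dm-Hydro-tRNAseq the members were 27 of the 162 isodecoders listed, with 18 for arginine and 9 for lysine. In YAMAT-seq they were 42 of the 240 tRNAs listed, with 20 for arginine and 22 for lysine. All 27 members of the dm-Hydro-tRNAseq list were also in the YAMAT-seq list.

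Nsun2 KO mice carried floxed Nsun2 alleles together with a Camk2a-Cre transgene, and their WT controls had floxed Nsun2 and no Cre. All mice were adults. Camk2a drives Cre in excitatory neurons of the forebrain, whereas the RNA came from whole cortex, so glia and inhibitory neurons that keep Nsun2 contributed to every KO library. There were 3 KO and 3 WT mice in dm-Hydro-tRNAseq, 4 KO and 3 WT mice in YAMAT-seq, and 2 KO and 2 WT mice in Riboseq, which gave a value for RNA and one for ribosome footprints per mouse. Mice are numbered within each assay. The 6 mice of dm-Hydro-tRNAseq were also in YAMAT-seq, where KO mice 1, 2 and 3 became KO mice 2, 3 and 4.

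Arginine is encoded by a box of CGN codons and by AGA and AGG, and lysine by AAA and AAG. The tRNA with the ACG anticodon reads codons of the CGN box after its first anticodon base is deaminated to inosine, and the tRNAs with TCT or TTT anticodons carry further modifications on the uridine at that place. Nsun2 places a methyl group on cytosines at the junction of the variable loop and the T stem, positions 48 to 50 of the standard numbering. Arg-TCT-4-1 is an isodecoder found mainly in the central nervous system, and its loss in mice that also lack the ribosome rescue factor Gtpbp2 leads to stalled ribosomes and neurodegeneration.

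The bases at these positions differ between the families. RefSeq lists 50 nuclear genes for tRNA-Arg and tRNA-Lys in GRCm38.p6, with 32 different mature sequences. Below, each is written without its intron and without the added CCA end, 5′ to 3′, and the capitals mark the anticodon and then positions 48 to 50. The 5 genes with a TCT anticodon are shown first because they are the brain isodecoder and its relatives, and the rest are frequent or single forms of the isoacceptors described in the results.
n-TRtct5: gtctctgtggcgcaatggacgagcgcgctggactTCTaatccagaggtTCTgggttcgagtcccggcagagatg
n-TRtct1: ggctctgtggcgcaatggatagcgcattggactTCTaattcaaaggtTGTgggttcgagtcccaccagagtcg
n-TRtct2: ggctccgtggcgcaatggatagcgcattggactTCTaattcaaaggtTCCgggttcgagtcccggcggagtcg
n-TRtct3: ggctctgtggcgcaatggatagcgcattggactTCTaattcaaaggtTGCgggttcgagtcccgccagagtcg
n-TRtct4: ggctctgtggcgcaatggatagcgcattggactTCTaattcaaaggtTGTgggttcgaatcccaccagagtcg
n-TRacg6: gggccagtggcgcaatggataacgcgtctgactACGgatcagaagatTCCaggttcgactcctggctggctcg
n-TRtcg2: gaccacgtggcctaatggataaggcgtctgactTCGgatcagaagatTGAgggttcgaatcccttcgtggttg
n-TKctt11: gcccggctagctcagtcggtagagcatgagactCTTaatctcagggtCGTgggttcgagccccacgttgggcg
n-TKctt25: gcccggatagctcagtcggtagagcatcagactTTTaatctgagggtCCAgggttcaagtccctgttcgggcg

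The gene n-TRtct5 encodes Arg-TCT-4-1. It lies on the plus strand at chr1:173390329-173390402, spans 74 bases and has no intron, whereas the other 4 TCT genes have introns of 12 to 14 bases. The reference genome is of C57BL/6J, a strain whose copy of this gene is known to carry a base change that impairs its processing. The study's methods give C57BL/6N for the floxed Nsun2 line, so the sequence shown is that of the reference, and which copy these mice carried was not determined here. The other RefSeq gene names could not be tied to the isodecoder names of the tables. The gene n-TKctt25 is named for CTT but carries a TTT anticodon in its sequence, as do 8 genes so named, and the anticodon read from the sequence was used.

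Cytosine at position 48 was a mark of lysine. All 16 genes with a CTT anticodon and 9 of the 10 with TTT had it, and none of the 24 arginine genes did. Cytosine at position 49 was present in all 10 Lys-TTT genes, 5 of the 6 Arg-ACG genes and 2 of the 5 Arg-TCT genes, n-TRtct5 among them. None of the 3 Arg-CCG genes and none of the 5 Arg-CCT genes had a cytosine at any of the 3 positions. Across all 50 genes, 15 had none there, and every one of these 15 was an arginine gene.

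With dm-Hydro-tRNAseq, which hydrolyses demethylated tRNA into short pieces before sequencing, no Arg or Lys isodecoder was called as changed. None of the 27 passed an adjusted p of 0.05 (limma on log2(CPM + 1), Benjamini-Hochberg over all 162 isodecoders), where 4.94% of all isodecoders were called lower in KO and 0% higher. The smallest adjusted p among the members was 0.639, and none had an unadjusted p under 0.05, against 16% of all isodecoders. Their log2 fold changes (KO over WT) lay between -0.34 and 0.27, with 14 above 0 and 13 below, and their median was 0.00 beside -0.13 for all isodecoders. With standard errors of 0.22 to 0.32, small changes were not excluded. Scaled by the median log ratio, the median of all isodecoders was 0.01 and 20 of the 27 members were above 0.

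Arg-TCT-4-1 was scarce in this assay. It had 70.4, 95.2 and 73.4 CPM in KO mice, against 105, 108 and 60.6 CPM in WT mice. WT mouse 3 was the lowest of all, so the groups overlapped, and the limma adjusted p was 0.872. The related Arg-TCT-1-1 had 27.6, 28.9 and 31.0 CPM in KO mice, against 39.2, 35.7 and 32.6 CPM in WT mice. It was the only member with every KO mouse below every WT mouse, which 15.4% of all isodecoders showed, and no member had every KO mouse above every WT mouse, against 1.23%. Its log2 fold change of -0.29 ± 0.27 (SE) was not called (limma adjusted p = 0.767). Arg-TCT-5-1 showed the largest increase of any member, with 58.9, 155 and 135 CPM in KO mice, against 77.8, 119 and 75.1 CPM in WT mice. KO mouse 1 was the lowest of the 6 mice here, and the log2 fold change was 0.27 ± 0.29 (SE; limma adjusted p = 0.803). The most abundant TCT isodecoder in WT mice was Arg-TCT-2-1, at 99.3, 137 and 99.5 CPM in KO mice and 105, 128 and 69.3 CPM in WT mice, with overlapping groups. In KO mice the mean of Arg-TCT-5-1 was the higher, at 116 CPM against 112 CPM for Arg-TCT-2-1.

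The 3 Arg-ACG isodecoders were all below 0 on the log2 scale, and none was called. Arg-ACG-1-1 had the largest decrease of any member, with 445, 517 and 709 CPM in KO mice, against 606, 727 and 759 CPM in WT mice. KO mouse 3 was within the WT range, and the log2 fold change was -0.34 ± 0.25 (SE; limma adjusted p = 0.639, and 0.25 with the replicate block). The most abundant of them, Arg-ACG-3-1, had 1261, 1197 and 1526 CPM in KO mice, against 1473, 1439 and 1550 CPM in WT mice. Scaling to the sum or by the median log ratio left all 3 below 0. In the deposited scale, however, Arg-ACG-2-1 (-0.15) and Arg-ACG-3-1 (-0.17) lay near the median of all isodecoders, -0.13. Between mice of the same number, which deviated together in this assay, each Arg-ACG isodecoder was lower in the KO mouse in 3 of 3 pairs. Altogether 6 of the 27 members were lower in all 3 pairs, Arg-TCT-1-1, Lys-CTT-3-1 and Lys-CTT-5-1 being the others, beside 32.1% of all isodecoders. Lys-TTT-2-1 and Lys-TTT-3-1 were higher in all 3, beside 11.7%.

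The other arginine tRNAs differed little between genotypes. Arg-CCT-4-1, the most abundant arginine tRNA of the assay, had 1701, 1634 and 2204 CPM in KO mice, against 1751, 1971 and 1662 CPM in WT mice. Arg-CCG-3-1 had 626, 727 and 751 CPM in KO mice, against 820, 798 and 590 CPM in WT mice. Arg-TCG-1-1 had 573, 562 and 763 CPM in KO mice, against 582, 656 and 619 CPM in WT mice. In all 3 of these the groups overlapped, with log2 fold changes of 0.03, -0.06 and 0.02. The arginine isodecoders not given by mouse here had log2 fold changes between -0.15 (Arg-ACG-2-1) and 0.15 (Arg-TCG-2-1). Arg-CCT-1-1 and Arg-CCT-2-1 differed by at most 1.47% in any mouse, so that the authors' split of shared reads between them cannot be checked from these values.

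Among lysine tRNAs, Lys-CTT-3-1 was the most abundant member by far. It had 7788, 10225 and 9133 CPM in KO mice, against 9421, 11022 and 9181 CPM in WT mice. KO mouse 1 was the lowest and the groups overlapped (log2 fold change -0.13 ± 0.22 SE, limma adjusted p = 0.872). Lys-TTT-1-1 had 1259, 1685 and 2214 CPM in KO mice, against 1334, 2148 and 1627 CPM in WT mice, again overlapping. The remaining lysine isodecoders ranged between means of 20.7 CPM (Lys-TTT-3-1 in WT mice) and 3326 CPM (Lys-CTT-2-1 in WT mice), and the 9 lysine isodecoders had log2 fold changes between -0.18 and 0.25.

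**Figure D1:**
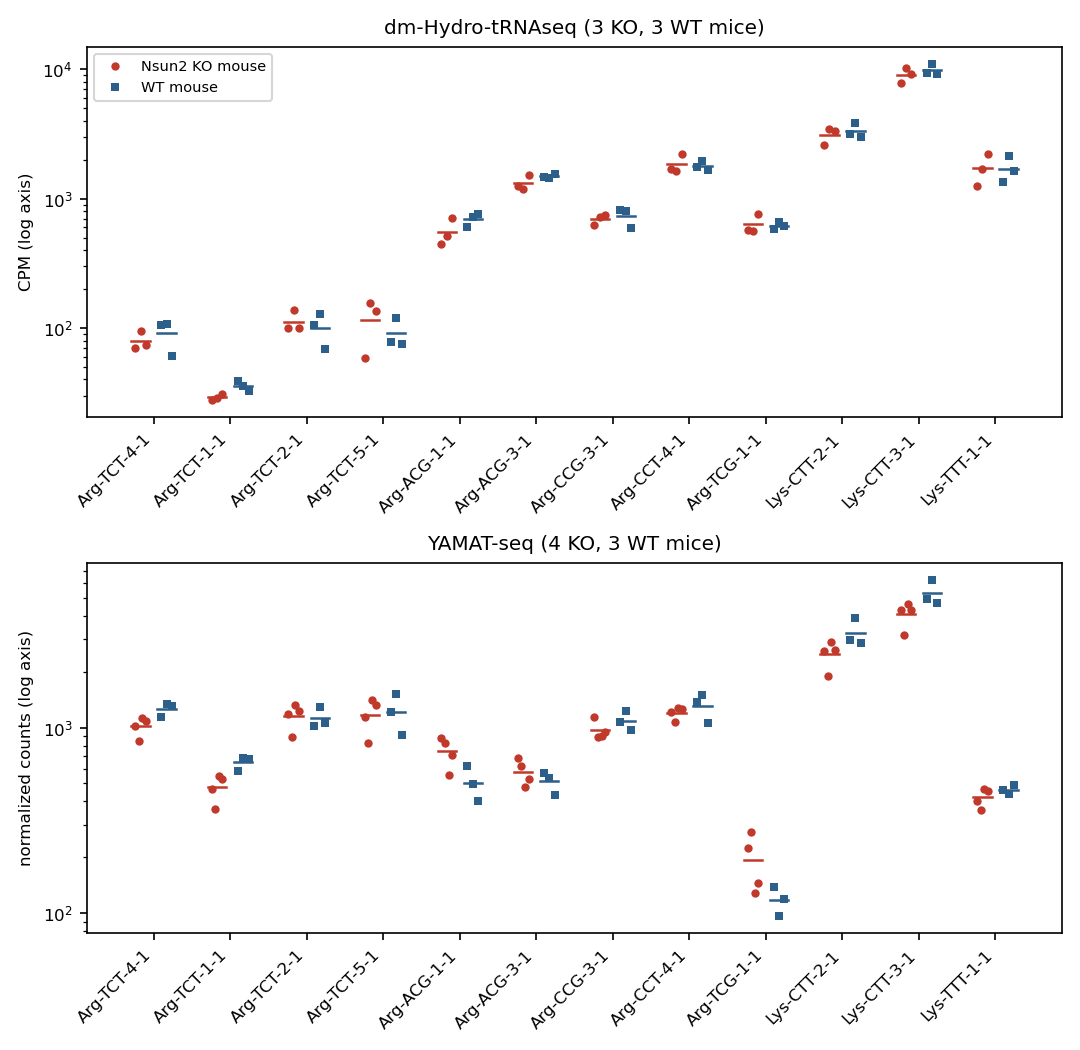
Levels of 12 Arg and Lys isodecoders per mouse (points, log axes) with group means (lines), KO left of WT, in dm-Hydro-tRNAseq CPM (upper) and YAMAT-seq normalized counts (lower). The 4 Arg-TCT isodecoders sit well below the other members in the upper plot and beside them in the lower one, and Arg-TCT-4-1 has KO and WT mice apart only in the lower plot.

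YAMAT-seq ligates adapters to full-length tRNA with its CCA end and counts molecules by unique identifiers. Here 25 of the 42 members reached a mean normalized count of 10 and were tested, 18 for arginine and 7 for lysine. Of the 17 members under that mean, 15 were lysine tRNAs, and 11 were at 0 in at least 1 mouse. No tested member was called (limma on log2(normalized count + 1), Benjamini-Hochberg over 166 tRNAs), where 2.41% of all tested tRNAs were lower in KO and 6.02% higher. At an unadjusted p under 0.05 there were 5 members, 4 higher and 1 lower and all of them arginine tRNAs, a share of the 25 below the 33.1% of all tested tRNAs.

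KO mice 1 and 2 stood apart from KO mice 3 and 4 in several members, and KO mouse 2 had the lowest summed value of the assay, 76840 against 94245 to 100196 in the other KO mice and 101603 to 129137 in WT mice. The scale of the table bears on every direction below. When each mouse was scaled to its sum, the median log2 fold change of all tested tRNAs was 0.25, in place of -0.02 in the deposited scale, and 17 of the 25 members were above 0, in place of 11.

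Arg-TCT-4-1 was among the most abundant arginine tRNAs in YAMAT-seq and was lower in each KO mouse than in any WT mouse. It had 1022, 842, 1132 and 1087 normalized counts in KO mice, against 1145, 1334 and 1304 in WT mice. The gap between the groups was narrow, between KO mouse 3 and WT mouse 1, and the log2 fold change of -0.31 ± 0.15 (SE) was not called (limma adjusted p = 0.16). Scaled to the sum, its log2 fold change was -0.03 (limma adjusted p = 0.811), and without KO mice 1 and 2 it was -0.18 (limma adjusted p = 0.562).

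Its relatives Arg-TCT-1-1 and Arg-TCT-3-1 had their KO and WT mice in the same order. Arg-TCT-1-1 had 468, 363, 546 and 528 normalized counts in KO mice, against 585, 690 and 680 in WT mice, with a log2 fold change of -0.47 ± 0.15 (SE; limma adjusted p = 0.0622). Arg-TCT-3-1, which was not in the dm-Hydro-tRNAseq list, had 274, 205, 307 and 298 in KO mice, against 312, 381 and 321 in WT mice (limma adjusted p = 0.17). Altogether 4 members had all KO mice below all WT mice, a pattern that 15.1% of tested tRNAs showed, and 1 had all KO mice above, against 12.7%. In contrast, Arg-TCT-2-1 and Arg-TCT-5-1 had overlapping groups. Arg-TCT-2-1 had 1191, 888, 1319 and 1231 normalized counts in KO mice, against 1019, 1285 and 1055 in WT mice. Scaled to the sum, Arg-TCT-2-1 was called higher, at a log2 fold change of 0.32 (limma adjusted p = 0.0363). Within Arg-TCT, the share of Arg-TCT-2-1 was 29.1%, 28.4%, 28.0% and 27.5% in KO mice, against 23.8%, 24.7% and 24.7% in WT mice. That of Arg-TCT-1-1 was 11.4%, 11.6%, 11.6% and 11.8% in KO mice, against 13.7%, 13.2% and 15.9% in WT mice. These shares do not depend on the scale of a mouse, and neither pair of groups overlapped, where 11.3% of isodecoder shares had every KO mouse higher and 9.93% every KO mouse lower. Within their own isoacceptors, the shares of Arg-ACG-1-1 and Arg-CCT-1-1 were also higher in every KO mouse. Those of Arg-ACG-3-1 and Arg-TCT-3-1 were lower in every KO mouse, so the separation was not particular to Arg-TCT-2-1 and Arg-TCT-1-1. In dm-Hydro-tRNAseq the shares of Arg-TCT-2-1 and Arg-TCT-1-1 overlapped. For Arg-TCT-2-1 they were 38.8%, 33.0% and 29.4% in KO mice, against 32.2%, 32.7% and 29.2% in WT mice. For Arg-TCT-1-1 they were 10.8%, 6.95% and 9.14% in KO mice, against 12%, 9.15% and 13.7% in WT mice. There 7.69% of isodecoder shares had every KO mouse higher and 15.4% every KO mouse lower.

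The 3 Arg-ACG and 3 Arg-TCG isodecoders tested had fold changes above 0, and KO mice 1 and 2 had the highest values of each. Without these mice, 1 of the 3 Arg-ACG isodecoders was below 0. Arg-ACG-1-1 had 883, 825, 557 and 715 normalized counts in KO mice, against 622, 496 and 401 in WT mice. KO mouse 3 fell below WT mouse 1, and the log2 fold change of 0.56 ± 0.18 (SE) was just outside the threshold (limma adjusted p = 0.0501). Scaled to the sum it was called, at 0.83 (limma adjusted p = 0.0356), and without KO mice 1 and 2 it was 0.34 (limma adjusted p = 0.43). Arg-TCG-2-1, with the largest increase of the tested members, had 167, 176, 90.7 and 137 in KO mice, against 97.2, 84.5 and 80.8 in WT mice, with KO mouse 3 inside the WT range (log2 fold change 0.66 ± 0.27 SE, limma adjusted p = 0.0978). Arg-TCG-1-1 had 226, 273, 128 and 145 in KO mice, against 139, 96.1 and 119 in WT mice, overlapping in the same mouse. Arg-CCG-2-1 had 162, 190.1, 93.7 and 152 in KO mice, against 128, 84.5 and 91.4 in WT mice (log2 fold change 0.53). The remaining tested members of the CGN box were Arg-ACG-2-1, Arg-ACG-3-1, Arg-CCG-1-1, Arg-TCG-3-1 and the most abundant, Arg-CCG-3-1, with log2 fold changes of 0.33, 0.16, 0.29, 0.40 and -0.16, none of them called. Single mice decided several of these calls. Without KO mouse 3, Arg-ACG-1-1, Arg-TCG-1-1, Arg-TCG-2-1 and Arg-CCG-2-1 were called higher (limma adjusted p of 0.00594, 0.0235, 0.023 and 0.0427) and Arg-TCT-1-1 lower (0.0235). Without WT mouse 1, Arg-ACG-1-1 was called higher (limma adjusted p = 0.00843) and Arg-TCT-1-1 lower (0.0346).

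The single member with all KO mice higher was Arg-CCT-1-1, at 91.4, 102, 90.7 and 87.9 normalized counts in KO mice, against 69.4, 53.0 and 58.5 in WT mice (log2 fold change 0.62 ± 0.27 SE, limma adjusted p = 0.115). Arg-CCT-4-1, its abundant relative, had 1208, 1069, 1277 and 1259 in KO mice, against 1376, 1500 and 1061 in WT mice, and Arg-CCG-3-1 had 1135, 892, 906 and 951 in KO mice, against 1068, 1223 and 970.3 in WT mice. Both overlapped between genotypes. Arg-CCT-2-1 and Arg-CCT-3-1 had log2 fold changes of -0.08 and 0.25. Arg-ACG-3-1 also overlapped, with 684, 623, 477 and 526 in KO mice, against 569, 537 and 436 in WT mice.

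All 7 tested lysine isodecoders had fold changes below 0 in the deposited scale, against 5 of the 7 when scaled to the sum, and none was called. Lys-CTT-3-1, again the most abundant member, had 4289, 3151, 4617 and 4319 normalized counts in KO mice, against 4938, 6254 and 4690 in WT mice. The groups did not overlap, although KO mouse 3 and WT mouse 3 were close (log2 fold change -0.37 ± 0.27 SE, limma adjusted p = 0.33). Lys-CTT-16-1, with the largest decrease of any tested member, lay near the filter, at 9.52, 7.18, 9.07 and 11.5 in KO mice, against 10.7, 13.3 and 15.9 in WT mice (log2 fold change -0.47 ± 0.37 SE). Lys-TTT-1-1 had 401, 361, 468 and 455 in KO mice, against 459, 438 and 488 in WT mice, with overlap. Scaled to the sum, the 5 Lys-CTT isodecoders stayed below 0 with a median of -0.14, and the 2 Lys-TTT isodecoders turned to above 0. Without KO mice 1 and 2, 6 of the 7 were below 0.

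**Figure D2:**
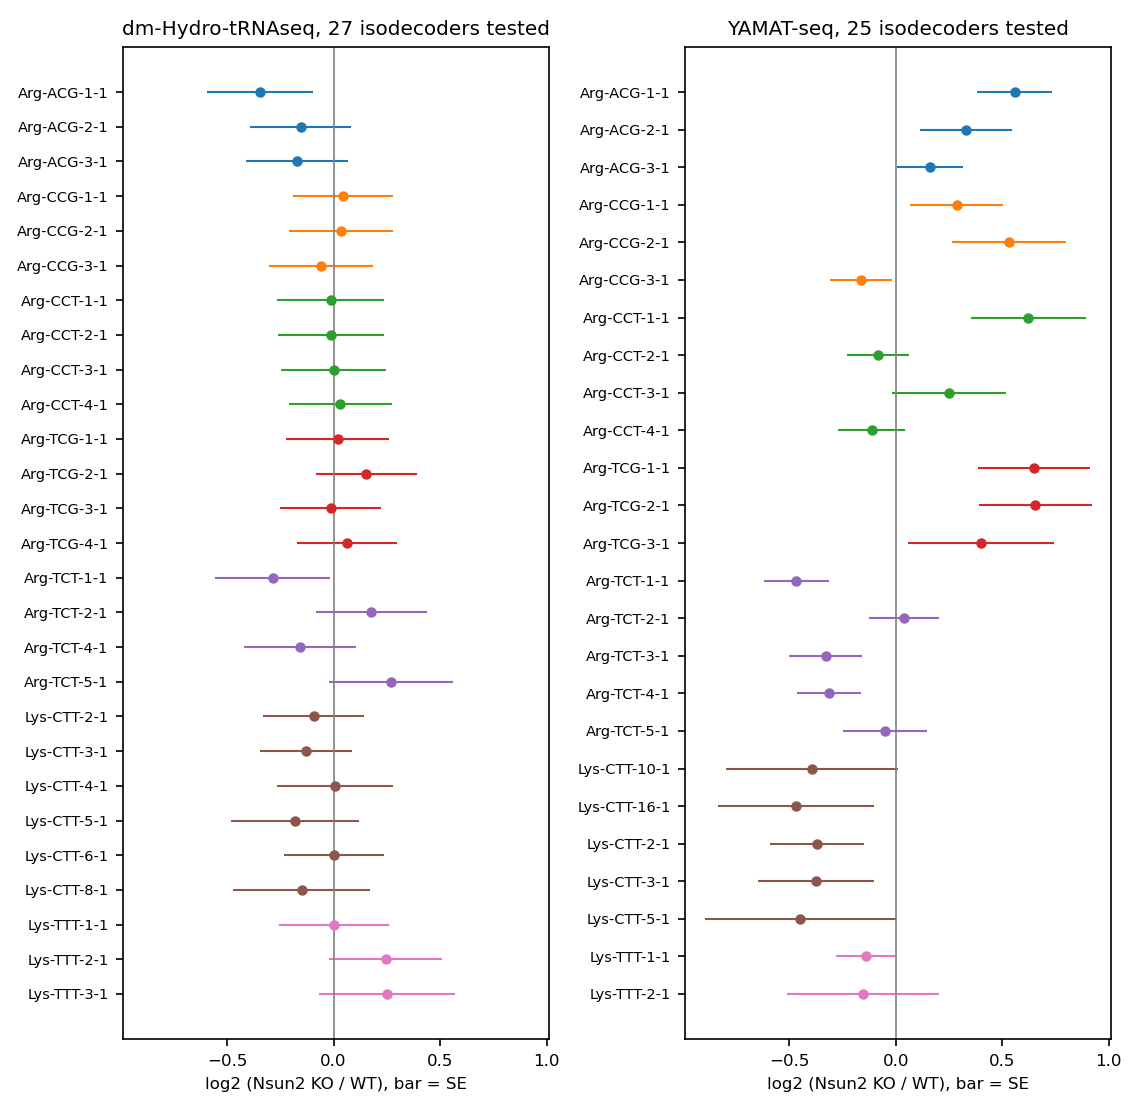
Log2 fold changes (Nsun2 KO over WT, points) with standard errors (bars) of the 27 isodecoders tested in dm-Hydro-tRNAseq (left) and the 25 tested in YAMAT-seq (right), with 1 colour per isoacceptor. Left, the values run between -0.34 and 0.27, and right between -0.47 and 0.66 with the 3 Arg-TCG isodecoders above 0 and, in the deposited scale, the 7 lysine isodecoders below (5 of them when scaled to the sum).

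Summed by anticodon, no Arg or Lys isoacceptor was called in dm-Hydro-tRNAseq (limma over 48 isoacceptors, 4.17% of which were lower in KO and 0% higher). None of the 7 had groups apart in CPM, where 10.4% of isoacceptors had every KO mouse below every WT mouse and 2.08% every KO mouse above. Arg-ACG had the lowest value, a log2 fold change of -0.21 ± 0.26 (SE; limma adjusted p = 0.784). As a share of nuclear tRNA its groups were apart, with 0.46%, 0.497% and 0.518% in KO mice, against 0.535%, 0.546% and 0.532% in WT mice, as 8.33% of isoacceptors were in this direction and 6.25% in the other. As a share of arginine tRNA it was also lower in each KO mouse, at 24.8%, 25.1% and 24.8%, against 27.4%, 26.0% and 30.7% in WT mice. Arg-TCG as a share of arginine tRNA was higher in each KO mouse, at 12.2%, 12.9% and 11.9%, against 11.7%, 11.8% and 11.4% in WT mice. Among isoacceptors of families with several, 10.5% had every KO mouse lower and 7.89% every KO mouse higher in such shares. In YAMAT-seq, Arg-TCG rose and the other 6 were not called (limma over 46 isoacceptors, 10.9% of which were lower in KO and 13% higher). Arg-TCG had 463, 548, 264 and 344 normalized counts in KO mice, against 304, 229 and 237 in WT mice. KO mouse 3 was below WT mouse 1, and the log2 fold change was 0.61 ± 0.23 (SE; limma adjusted p = 0.0401). The call depended on which single mouse was left out. It stayed without KO mouse 3 (limma adjusted p = 0.00733), KO mouse 4 (0.0434) or WT mouse 1 (0.0231), and was lost without any of the others. With KO mouse 1 left out the limma adjusted p was 0.13, with KO mouse 2 left out 0.187, with WT mouse 2 left out 0.134 and with WT mouse 3 left out 0.159. Without KO mice 1 and 2 together the log2 fold change was 0.24 (limma adjusted p = 0.562). Scaled to the sum it was 0.89, with a limma adjusted p of 0.0829.

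Arg-ACG was next, with 1833, 1740, 1213 and 1450 normalized counts in KO mice, against 1436, 1185 and 1004 in WT mice (log2 fold change 0.36 ± 0.15 SE, limma adjusted p = 0.0545). It was called without KO mouse 3 (limma adjusted p = 0.00898) and without WT mouse 1 (0.0231). Lys-CTT had 6958, 5091, 7593 and 6988 in KO mice, against 7949, 10219 and 7606 in WT mice. It was the 1 of the 7 with its groups apart, narrowly, where 23.9% of isoacceptors had every KO mouse lower and 17.4% every KO mouse higher, and the log2 fold change was -0.37 ± 0.24 (SE; limma adjusted p = 0.206). Arg-TCT had 4093, 3125, 4707 and 4472 in KO mice, against 4281, 5206 and 4273 in WT mice, with overlap. As shares of nuclear tRNA, none of the 7 had its groups apart in YAMAT-seq, where 26.1% of isoacceptors had every KO mouse higher and 13% every KO mouse lower. As shares of their amino acid's tRNA none was apart either, beside 5.41% of isoacceptors in each direction.

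As a share of all nuclear tRNA in YAMAT-seq, arginine tRNA was larger in each KO mouse than in any WT mouse. It made up 13.6%, 14.0%, 12.4% and 13.3% in KO mice, against 12.2%, 10.8% and 11.1% in WT mice, a separation that 27.3% of the 22 amino acid families showed in this direction and 13.6% in the other. Lysine tRNA made up 10.3%, 9.14%, 11.0% and 10.5% in KO mice, against 11.0%, 11.4% and 10.9% in WT mice, with KO mouse 3 inside the WT range. In dm-Hydro-tRNAseq the arginine share was 1.86%, 1.98% and 2.09% in KO mice, against 1.95%, 2.10% and 1.73% in WT mice, and the lysine share 2.83%, 4.03% and 3.21% in KO mice, against 3.22%, 3.91% and 2.94% in WT mice. Both overlapped, where 13.6% of amino acid families had every KO mouse higher and 4.55% every KO mouse lower. A share also moves when other tRNAs do, and tRNA outside these families was not separated from it here.

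**Figure D3:**
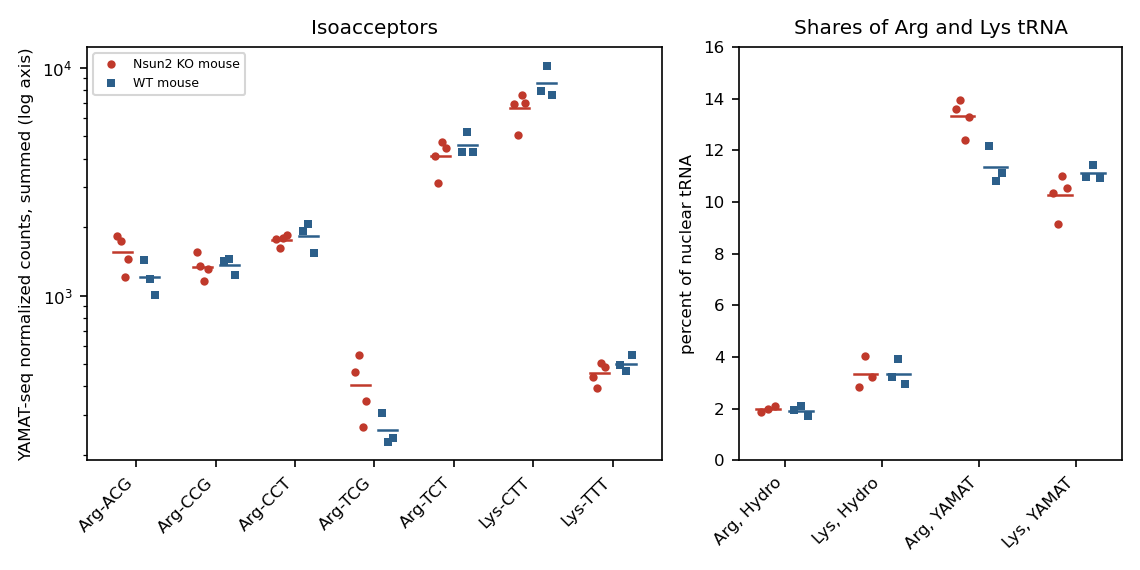
Summed YAMAT-seq normalized counts of the 7 isoacceptors (left, log axis) and the percent of nuclear tRNA held by Arg and Lys tRNA in both assays (right), per mouse with group means, KO left of WT. Arg-TCG is higher in 3 of 4 KO mice than in any WT mouse, and the arginine share of YAMAT-seq is 12.4% to 14.0% in KO mice and 10.8% to 12.2% in WT mice.

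Arg-TCT differed far more between the assays than between the genotypes. In WT mice, Arg-TCT held 5.62% of nuclear tRNA in YAMAT-seq and 0.0685% in dm-Hydro-tRNAseq, 82.1 times as much. Nuclear tRNA here means the nuclear isodecoders listed for each assay, and the lists differ. That of dm-Hydro-tRNAseq summed to 400930 to 503572 CPM per mouse and lacked Arg-TCT-3-1. Arg-TCT-4-1 alone held 1.55% ± 0.171 in YAMAT-seq and 0.0197% ± 0.00661 in dm-Hydro-tRNAseq (SD, n = 3 WT mice each). For the other isoacceptors the ratio of the assays lay between 1.32 for Lys-TTT and 7.82 for Arg-CCG. That of Arg-TCG, at 1.42, was below its 1.53-fold change between genotypes in YAMAT-seq. Of the 22 members compared, the 4 Arg-TCT isodecoders were the ones with a ratio over 10, and 19 had the larger share in YAMAT-seq. Both assays treated RNA to remove methyl groups before sequencing, and their parts in these ratios were not tested.

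The KO effect itself was compared between the assays in the 6 mice common to both. Among 22 members measured in each, none differed past the threshold (limma on the per-mouse difference of log2 values, adjusted over 130 isodecoders, 0% of which passed, with 11.5% at an unadjusted p under 0.05). The largest difference was that of Arg-ACG-1-1, whose log2 fold change was 0.47 in YAMAT-seq and -0.34 in dm-Hydro-tRNAseq, a difference of 0.81 ± 0.37 (SE; limma adjusted p = 0.413). Arg-TCT-4-1 had -0.31 in YAMAT-seq and -0.16 in dm-Hydro-tRNAseq, a difference of -0.15 ± 0.31 (SE). The scale of each assay bears on the sign and size of these differences. Their median was 0.28 over all 130 isodecoders and -0.10 over the 22 members. When scaled to the sum, 15 members had a difference above 0, in place of 10.

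Set beside the codons, the isoacceptors were spread unevenly. Codon shares were counted in the coding sequences of 12588 transcripts and weighted by the RNA value of each in the Riboseq table. In WT cortex, AGA made up 20.2% of arginine codons, whereas Arg-TCT, its isoacceptor, made up 49.6% of arginine tRNA in YAMAT-seq and 3.51% in dm-Hydro-tRNAseq. CGA made up 12.6% of arginine codons, and Arg-TCG 2.79% of arginine tRNA in YAMAT-seq and 11.6% in dm-Hydro-tRNAseq. Each codon was assigned to a single isoacceptor, with CGT and CGC for Arg-ACG, so any reading of CGA by Arg-ACG was not counted. AAA made up 37.5% of lysine codons, and Lys-TTT 5.65% of lysine tRNA in YAMAT-seq and 14.1% in dm-Hydro-tRNAseq. Codon shares hardly moved with genotype, as for AGA with 20.1% and 20.4% in KO mice and 20.0% and 20.5% in WT mice.

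**Figure D4:**
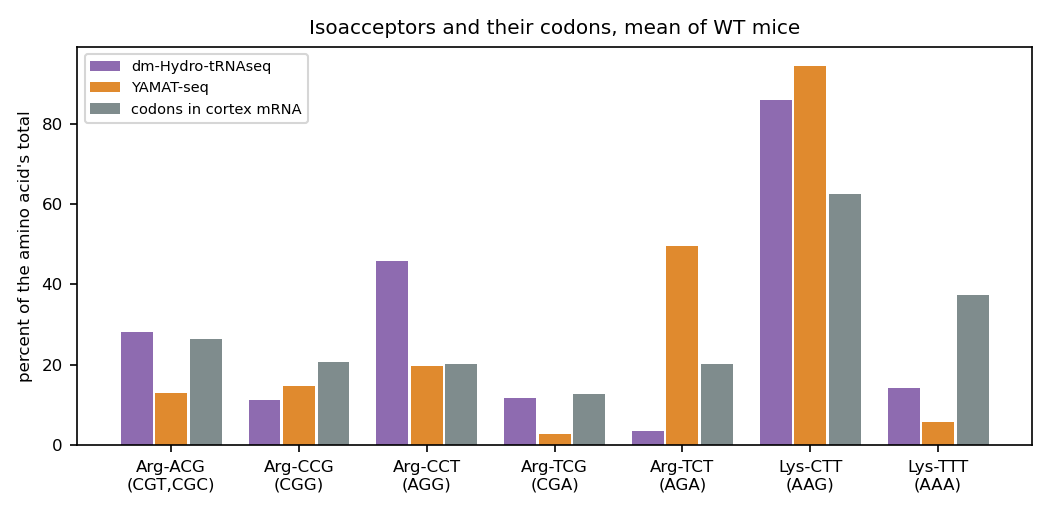
Percent of arginine or lysine tRNA held by each isoacceptor in dm-Hydro-tRNAseq and YAMAT-seq, beside the percent of the amino acid's codons that it is assigned (bars, means of WT mice). Arg-TCT holds 49.6% of arginine tRNA in YAMAT-seq and 3.51% in dm-Hydro-tRNAseq, with AGA at 20.2% of arginine codons.

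Translational efficiency, the footprint change relative to the RNA change, had a median log2 value of -0.04 over the 10573 tested transcripts with a coding sequence. The 20% of transcripts richest in each codon had medians close to it. The lowest was -0.07 for AAG and the highest -0.01 for CGG, with -0.05 for AGA and -0.06 for AAA. Transcripts share mice and codons, so these medians are a description and carry no test.

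In the Riboseq mice, Nsun2 RNA was 362 and 368 in KO cortex, against 1292 and 1120 in WT cortex, a log2 fold change of -1.72 ± 0.12 (SE; limma adjusted p = 4.5e-05), as the labels state. A list of 38 genes that charge, modify or rescue arginine and lysine decoding or transport these amino acids was examined, of which 36 were tested. In RNA, 1 was called higher and 0 lower (limma over 10674 transcripts, 1.5% higher and 1.65% lower), with a median log2 fold change of 0.21 beside 0.04 for all transcripts. In footprints and in translational efficiency none was called, where 0.206% of transcripts were higher and 0.384% lower in footprints and 0% either way in efficiency. At an unadjusted p under 0.05 there were 8 in RNA, 4 in footprints and 1 in efficiency. The share of all transcripts under that p was not counted, so these counts do not show whether the list stands out.

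The gene that rose was Slc7a3, a transporter of cationic amino acids. Its RNA value was 58.7 and 60.8 in KO cortex, against 6.14 and 20.9 in WT cortex, and its log2 fold change was 2.28 ± 0.46 (SE; limma adjusted p = 0.027). Its footprints were 50.7 and 29.1 in KO cortex, against 5.41 and 17.9 in WT cortex, also without overlap (limma adjusted p = 0.0922). The WT mice differed more than 3-fold from each other in both, and the log2 fold change in RNA was 1.47 without WT mouse 1 (limma adjusted p = 0.0339) and 3.09 without WT mouse 2. With the replicate block the RNA change was not called (limma adjusted p = 0.153). Its footprints were called when either WT mouse was left out, and with single mice left out their limma adjusted p was 3.1e-07 to 0.362. Slc7a1, a transporter of the same family, had RNA values of 478 and 421 in KO cortex, against 278 and 363 in WT cortex (limma adjusted p = 0.098).

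The cytosolic synthetases were higher in both KO mice without being called. Rars, which charges tRNA-Arg, had RNA values of 591 and 659 in KO cortex, against 463 and 509 in WT cortex (limma adjusted p = 0.121). Kars, which charges tRNA-Lys, had 918 and 874 in KO cortex, against 738 and 773 in WT cortex (limma adjusted p = 0.216). Mettl2, of a family of enzymes that methylate tRNA, had footprints of 18.0 and 21.3 in KO cortex, against 11.1 and 7.48 in WT cortex, and a log2 efficiency change of 1.22 ± 0.39 (SE; limma adjusted p = 0.999). Marker RNA was that of cortex. The 4 genes listed for excitatory neurons summed to 81478 and 83776 in KO mice and 83296 and 82699 in WT mice. Much of this sum was Snap25, a gene not limited to excitatory neurons. It had 45195 and 49489 in KO mice, against 44144 and 42380 in WT mice. Camk2a was lower in both KO mice, at 26978 and 26687, against 30778 and 30503 in WT mice. It was not called (limma adjusted p = 0.267), and the groups of Slc17a7 and Neurod6 overlapped. The 3 inhibitory neuron genes summed to 6028 and 6095 in KO mice, against 4938 and 4462 in WT mice. Of these, Gad1 and Gad2 were higher in both KO mice without being called. Slc32a1 overlapped, at 342 and 267 in KO mice, against 294 and 279 in WT mice. Gfap, an astrocyte gene, had RNA values of 889 and 805 in KO mice, against 576 and 431 in WT mice, and rose (limma adjusted p = 0.0199), whereas the 3 astrocyte genes together summed to 2892 and 2708 in KO mice and 2532 and 3328 in WT mice. Cx3cr1, a microglia gene, had 124 and 149 in KO mice, against 206 and 249 in WT mice, and fell (limma adjusted p = 0.042). The 3 microglia genes summed to 301 and 239 in KO mice, against 335 and 426 in WT mice. The other members of that list overlapped. Csf1r had 105 and 59.8 in KO mice, against 94.8 and 107 in WT mice. C1qa had 72.0 and 30.4 in KO mice, against 34.2 and 70.7 in WT mice. The 3 genes of endothelium and blood summed to 605 and 556 in KO mice, against 347 and 480 in WT mice. Most of this was Hbb-bs, a blood gene, with 522 and 480 in KO mice, against 290 and 383 in WT mice. It was not called (limma adjusted p = 0.058). The endothelial genes Cldn5 and Flt1 were too low to be tested, and their groups overlapped. The 3 oligodendrocyte genes summed to 6797 and 6493 in KO mice, against 7654 and 5734 in WT mice. The part of these cells in the results was not tested. In bulk cortex, fewer cells of a type and less RNA per cell cannot be told apart.

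**Figure D5:**
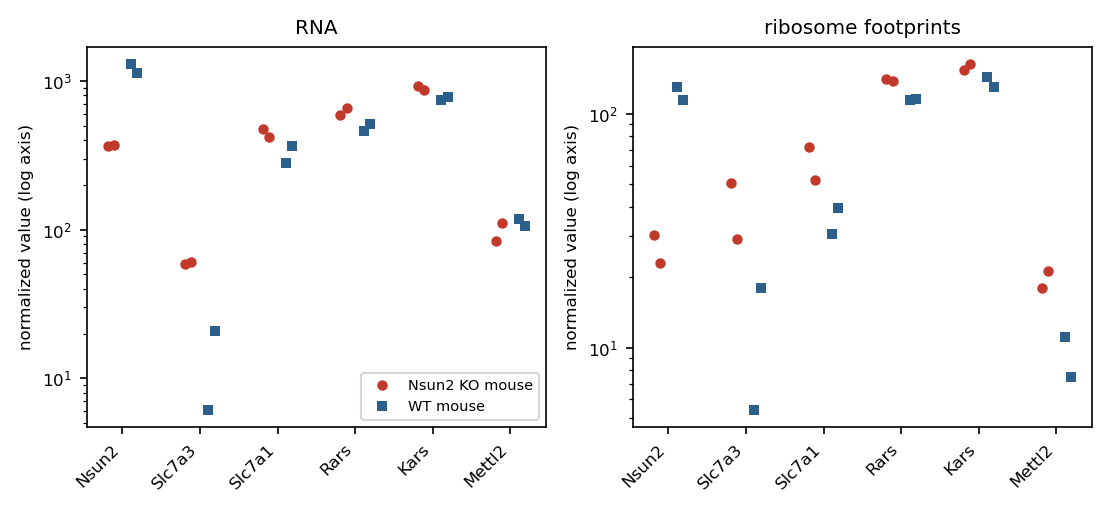
Normalized RNA (left) and footprint values (right) of Nsun2 and 5 genes of arginine and lysine handling, per mouse on log axes, KO left of WT. Nsun2 is lower in both KO mice, and Slc7a3 is higher, with RNA of 58.7 and 60.8 in KO mice and 6.14 and 20.9 in WT mice.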

How the data were processed

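The members and gene lists were chosen with earlier results of these data known. Deposited dm-Hydro-tRNAseq values are CPM, for which the authors used cutadapt for trimming and BWA for alignment to mature tRNAs, with a correction of reads shared between tRNAs. The YAMAT-seq table holds a signal that the authors made by dividing deduplicated counts by a DESeq2 size factor per mouse. The Riboseq signal, scaled by medians by the authors, was made with Bowtie2 2.4.2, SAMtools 1.11, cutadapt 3.1 and UMI-tools 1.1.1 per the submitters' processing notes. Of 103 samples listed, 17 had columns used here.

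Each whole table was fitted on the log2(value + 1) scale in R 4.3.3, using limma 3.58.1 with a trend, with Benjamini-Hochberg adjustment at 0.05. Filters were a mean of 10 in YAMAT-seq and a mean footprint value of 10 in Riboseq. Separate animals were the replicates. YAMAT-seq values were whole multiples of a step per mouse, with 77910 to 139036 steps in all; the depth behind CPM is unknown. Same-numbered dm-Hydro-tRNAseq mice deviated together (correlations of 0.489, 0.717 and 0.715), a pairing seen in the data only. Fits were tested on simulated data. Sequences came from RefSeq (GRCm38.p6) and codons from GENCODE vM21.

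Full values were given for Arg-TCT-4-1, the most abundant isodecoder of each anticodon by WT mean in each assay, members past the threshold and the largest rise and fall in each assay. Other members were named after their values were seen. Alternatives were other pseudocounts, filters and scalings, the replicate number as a block, and each mouse left out. Leaving out YAMAT-seq KO mice 1 and 2 was chosen after seeing the data.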

Additional observations from a re-analysis of the deposited data

How the results depend on the processing

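In dm-Hydro-tRNAseq, 0 members were called in either direction under any alternative run, the replicate block included, and the same held for the difference between the assays. In YAMAT-seq the count of isodecoders called higher, 0 as reported, was 1 with a pseudocount of 5, 1 with a mean of at least 50, 2 when scaled to the sum and 1 with the replicate block, and leaving out 1 mouse gave 0 to 4 higher and 0 to 1 lower. The count of isoacceptors called higher, 1 as reported, was 0 when scaled to the sum, 0 with the replicate block, 0 without KO mice 1 and 2, and 0 to 2 when 1 mouse was left out. Same-numbered YAMAT-seq mice did not deviate together (0.29, -0.59 and 0.0047), but these are not the animal pairs of dm-Hydro-tRNAseq. In YAMAT-seq those pairs were KO mouse 2 with WT mouse 1, KO mouse 3 with WT mouse 2, and KO mouse 4 with WT mouse 3. Their correlations were 0.492, 0.473 and -0.0365. The YAMAT-seq replicate block followed the number and not these animal pairs. No WT mouse shared the number of KO mouse 4, so that mouse did not enter the fold changes of the block fit. In Riboseq, the RNA call of Slc7a3 was lost with the replicate block (limma adjusted p = 0.153) and had no value at a mean footprint value of at least 50, leaving 0 called in both, and leaving out 1 mouse gave 0 to 2 footprint calls. The cause of these shifts was not tested. Count models foreseen for YAMAT-seq were not run, since each mouse had only 56 to 73 values of up to 20 steps to fix what 1 read is worth. The 17 YAMAT-seq members under a mean of 10 were too shallow to be tested.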
